A study of Chlorocebus aethiops with 36 samples.

Results

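The 24 liver arrays of weeks 4 and 12, of 36 in the series, came from 12 male African green monkeys, each biopsied at both times. They were paired by the animal number in the labels, and the change was the mean over the 12 animals of the week 12 value minus the week 4 value, with both treatment arms pooled. Of the 12 animals, 6 received anti-miR-33, an oligonucleotide that blocks the microRNA miR-33, and 6 received a control anti-miR. Each was given at 5 mg/kg under the skin, first 2 times a week and then weekly. At week 4 the animals had been treated for 4 weeks while eating normal chow. At week 12 they had eaten a high-carbohydrate, moderate-cholesterol diet for the 8 weeks since, with dosing continued. The same animals' 12 untreated chow biopsies, taken at week -5, are given beside these values as baseline. All 24 arrays therefore carried an anti-miR, and no animal stayed on chow to week 12, so diet, a further 8 weeks of dosing and time itself cannot be told apart. The labels do not say whether animals shared a group pen or a biopsy day, so p-values measure the spread between these 12 animals.

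As background, dietary carbohydrate raises insulin and glucose signals that act in liver through the transcription factors SREBP-1c (encoded by SREBF1) and ChREBP (encoded by MLXIPL), which drive genes that make and desaturate fatty acids. Dietary cholesterol acts in opposition on the sterol pathway: it holds SREBP-2 in the endoplasmic reticulum and so lowers the cholesterol synthesis enzymes, while its oxysterol products activate the nuclear receptor LXR, which raises sterol exporters. Bile acids activate the receptor FXR, whose target NR0B2 (SHP) represses bile acid synthesis. miR-33 is made from introns of the SREBF genes and represses ABCA1 and other lipid genes.

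The arrays were human arrays hybridised with monkey RNA, so a level is comparable across samples within a probe set and not between genes. The 24 arrays correlated with one another at 0.966 to 0.990 over the tested genes. Liver transcripts were at the top of the scale on them (APOA1 at a mean log2 signal of 14.6, TTR at 14.1, ALB at 13.8). ADIPOQ of fat and ACTA1, MYH7 and CKM of muscle lay below the filter on low signal, at mean log2 signals of 3.30, 4.32, 3.97 and 3.72. FABP4 of fat passed it at 4.795, and of 14 fat and muscle genes 6 were tested. KRT19 of bile ducts, which belong to liver, also lay below it at 4.02. A signal below the filter thus does not show that a tissue was absent. A spiked-in control set the week 4 arrays apart. The hybridisation control bioB, a bacterial transcript added at a fixed amount, had a mean log2 signal of 6.01 ± 0.29 (SD, n = 12) at baseline, 9.21 ± 0.26 at week 4 and 5.79 ± 0.23 at week 12. No week 4 array (8.87 to 9.69) overlapped the other weeks, and bioB fell by 3.43 ± 0.10 (SE) in 12 of 12 animals (two-sided exact permutation test over signs of the 12 changes, p = 4.88e-04, the smallest it can give). The controls bioC, bioD and cre changed by -0.23 (p = 0.0103), 0.01 (p = 0.910) and -0.02 (p = 0.882) in the same test. The array numbers in the labels ran consecutively through the baseline and week 12 arrays, and the week 4 arrays carried a separate run of numbers. Number run and week 4 thus cannot be told apart in any value below. For this reason the change from baseline to week 12, which stays within the first run of numbers, is given for the lists and the genes with values. It shares the week 12 arrays with the change from week 4. The ratio of 3' to 5' signal of a transcript falls as RNA becomes more intact. For GAPDH the 3' minus 5' log2 difference stood at 2.57 ± 0.42 (SD, n = 12) before treatment, then 2.24 ± 0.40 at week 4 and 1.83 ± 0.14 at week 12, a fall of 0.41 ± 0.11 (SE) from week 4 in 10 of 12 animals (exact permutation test, p = 0.00635). For ACTB it was 2.57 ± 0.44, 1.65 ± 0.44 and 1.83 ± 0.20, a change of 0.18 ± 0.12 from week 4 (p = 0.178), and the mean of both genes changed by -0.11 ± 0.11 (p = 0.334). From baseline to week 12 the difference thus went from 2.57 to 1.83 in both genes. Their mean went only from 1.94 at week 4 to 1.83. The change from baseline was not adjusted for this larger shift.

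**Figure D1:**
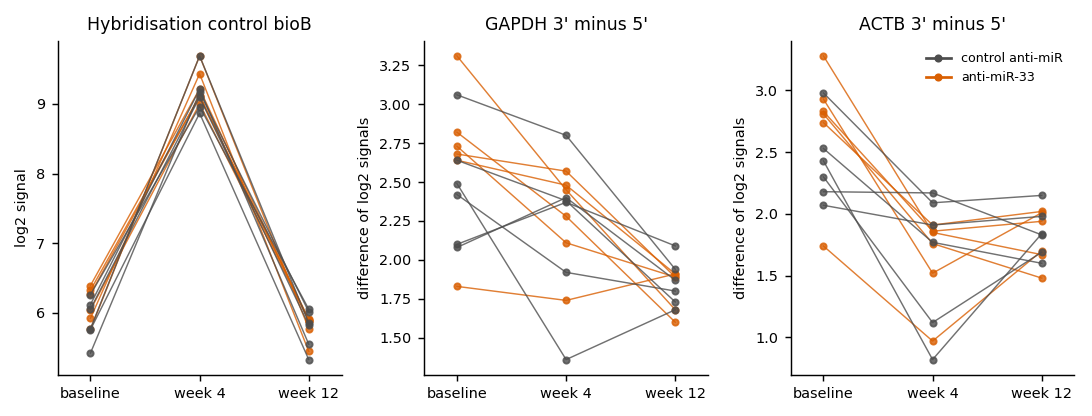
Each line is 1 animal at baseline, week 4 and week 12, coloured by arm. The left panel gives the log2 signal of the bioB hybridisation control, where all week 4 arrays lie at 8.87 or above and all others at 6.39 or below. The other panels give the 3' minus 5' difference of log2 signals for GAPDH and ACTB, which was more variable before week 12.

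One label needed care. The week 4 array of control animal 1 carries the high-carbohydrate diet label, whereas the other 11 week 4 arrays are labelled chow, as the study's design text has it for all animals. On the first principal component of the 24 arrays (18.6% of the variance) this array scored -6.32, the other week 4 arrays 3.13 to 21.8, and the week 12 arrays -19.6 to -1.48. Its SCD value at week 4, 10.66, was the highest of the 12 (others 8.86 to 10.58), and so were its values for ELOVL5 (10.49, others 9.27 to 10.29), INSIG1 (11.51, others 9.15 to 10.99) and NR0B2 (8.72, others 7.34 to 8.65). Its SREBF1 value, 6.36, was the lowest (others 6.46 to 8.20). Other lipid genes were not at the end of the range: its FASN value, 10.26, was the fifth highest (others 8.24 to 11.23) and its THRSP value, 7.96, the ninth (others 6.29 to 9.06). Genes outside lipid metabolism were also highest on it, among them HSPD1 (12.28, others 11.31 to 11.97), DNAJA1 (11.17, others 9.29 to 10.58) and RPS12 (12.35, others 11.53 to 12.17). FAAH (8.80, others 8.93 to 9.39) and PBX2 (7.59, others 7.62 to 8.12) were among those lowest on it. The array also lay outside the other 11 in its 3' minus 5' differences, at 1.36 for GAPDH (others 1.74 to 2.8) and 0.82 for ACTB (others 0.97 to 2.17), and the part of RNA quality in its position was not tested. It stayed in its week 4 group, as titled.

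From week 4 to week 12, 1951 of 13634 tested genes were called higher (14.3%) and 1711 called lower (12.5%), where a call is a Benjamini-Hochberg adjusted p under 0.05 in limma's paired fit. Most shifts were small: 3456 of the 3662 called genes, or 94.4%, moved by under 0.5 on the log2 scale. A mean change of 2-fold or more was reached by SCD, DUSP1, HPGD and HSPA13 upward and by HBB, ANXA6 and TRIAP1 downward. The median change over all tested genes was 0.01. From baseline to week 12, 11.7% of tested genes were called higher and 17.5% lower, in a limma fit of the 12 animals' differences without an arm term. These shares, and the 14.3% and 12.5% from week 4, are the background for every list count below. Of the called genes, 680 moved the same way in all 12 animals, and 44 (0.323% of the tested genes) had week 4 and week 12 levels that did not overlap. Without control animal 1 there were 3606 calls, and without the 4 animals whose arrays had a differing diet label or an unusually low top signal there were 2219 (1127 higher and 1092 lower). With each array's GAPDH 3' minus 5' value as a covariate, 1114 calls were made (491 higher and 623 lower). With the mean 3' minus 5' value of GAPDH and ACTB as the covariate instead, there were 3529 (1843 higher and 1686 lower), and SREBF1 and ABCB11 were the named genes that lost their calls. Testing against a change of 0.5 in place of 0 left 10 calls, 2 higher (SCD and DUSP1) and 8 lower (HBB, ANXA6, TRIAP1, FBXL17, DLST, RAB5C, FAAH and PBX2).

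The desaturase SCD, which makes oleic and palmitoleic acid from saturated fatty acids, had the largest rise of any tested gene. Its log2 signal had a lowest, median and highest value of 8.86, 9.61 and 10.66 at week 4 and of 9.42, 11.56 and 12.53 at week 12. It rose in 12 of 12 animals. The weeks overlapped, since control animal 6 reached only 9.42 at week 12 and anti-miR-33 animal 4 only 10.33. The mean rise was 1.63 ± 0.16 (SE, n = 12), or 3.09-fold, with an adjusted p of 3.34e-06 in limma. Its other probe sets rose by 2.07, 0.97 and 1.00. Mean SCD levels went from 9.11 ± 0.68 (SD) before treatment to 9.71 ± 0.61 and then 11.33 ± 0.83, so the change from baseline was 2.22. ELOVL5, which lengthens polyunsaturated fatty acids, ran from 9.27 to 10.49 at week 4 (median 9.77) and from 9.83 to 10.90 at week 12 (median 10.45). It rose by 0.64 ± 0.08 in 12 of 12 animals (adjusted p = 2.41e-05) on this probe set, and a weak further probe set changed by 0.05. From baseline it rose by 1.27.

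Over the list of fatty acid synthesis and desaturation, 8 of 18 tested genes were called higher, 2 lower and 8 not called, beside 14.3% and 12.5% of all tested genes. The list's median change was 0.19, beside 0.01 for all genes. From baseline 8 were called higher and 0 lower, with a median of 0.25. The genes called higher were ACLY, ACACA, SCD, ELOVL5, ELOVL6, THRSP, SREBF1 and TMEM97. TMEM97 was counted as a member of the list, although it is a gene of cholesterol handling. THRSP, a lipogenic regulator known as Spot 14, rose by 0.76 ± 0.16 in 10 of 12 animals (adjusted p = 0.00239), and its further probe sets by 0.73 and 0.88. SREBF1 spread widely: its lowest, median and highest values were 6.36, 7.23 and 8.20 at week 4 and 6.54, 7.71 and 10.48 at week 12. Its mean change of 0.70 ± 0.24 (8 of 12 animals up, adjusted p = 0.0391) was the least certain of the named calls in this list, and its other probe set changed by -0.02. FASN, the fatty acid synthase, gave 0.25 ± 0.22 with 7 of 12 animals up and no call (adjusted p = 0.434). FASN had stood at 8.93 before treatment and at 9.93 by week 4, against 10.17 at the end. From baseline the rises were 1.39 for THRSP, 1.26 for SREBF1 and 1.24 for FASN, all called. MLXIPL, the carbohydrate-responsive factor itself, fell by 0.46 ± 0.06 in 12 of 12 animals (adjusted p = 4.13e-05), from a median of 7.40 to one of 7.01, and stood 0.12 below baseline without a call. The mitochondrial citrate carrier SLC25A1 was the other gene called lower. The list's count of 8 fell to 4 without control animal 1, to 4 without the 4 animals in doubt, to 2 in the fit without the animal as a replicate block, to 3 with all 36 arrays and the animal as a random block (an estimated correlation), and to 3 with GAPDH's 3' minus 5' value as a covariate. With GAPDH's 3' minus 5' value as a covariate, THRSP and SREBF1 lost their calls and SCD and ELOVL5 kept theirs.

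**Figure D2:**
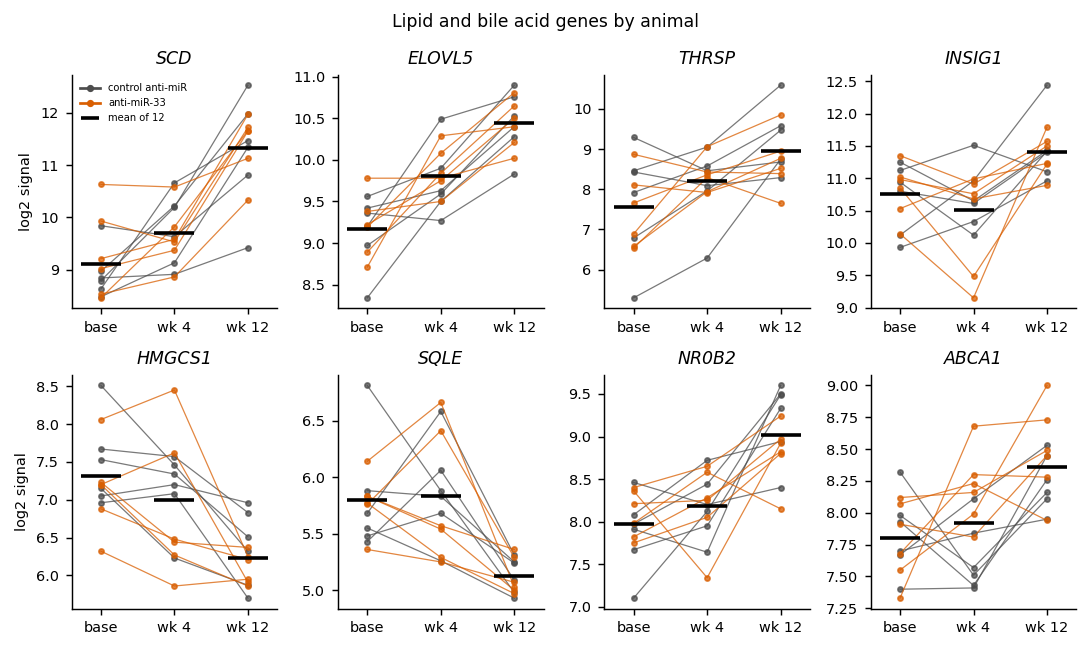
Log2 signal of 8 lipid and bile acid genes at baseline, week 4 and week 12. Each line is 1 animal, grey for control anti-miR and orange for anti-miR-33, and black bars are means of 12 animals. SCD and ELOVL5 step up at both times, HMGCS1 and SQLE are lowest at week 12, and the spread of SQLE is narrowest at week 12.

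The cholesterol synthesis enzymes went the other way. Of 20 tested genes of cholesterol synthesis and uptake, 7 were called lower (HMGCS1, MVD, FDPS, SQLE, LSS, TM7SF2 and MSMO1), 2 higher (INSIG1 and STARD4) and 11 were not called. The share called lower was 35% beside 12.5% of all tested genes, and the share called higher 10% beside 14.3%. The median change was -0.12, and the mean over the list was lower in 10 of 12 animals. From baseline 9 were called lower and 1 higher, with a median of -0.11. HMGCS1, which makes HMG-CoA, had a lowest, median and highest value of 5.86, 7.14 and 8.45 at week 4 and of 5.70, 6.23 and 6.96 at week 12. All week 12 values lay under the week 4 median, and the mean fell by 0.77 ± 0.16 in 11 of 12 animals (adjusted p = 0.00210), with a second probe set at -1.21. SQLE, the squalene epoxidase, ran from 5.25 to 6.66 at week 4 (median 5.76) and from 4.93 to 5.36 at week 12 (median 5.08). It fell by 0.71 ± 0.11 in 12 of 12 animals (adjusted p = 2.50e-04), and its SD narrowed from 0.50 to 0.15, while a second probe set changed by -0.08. FDPS, the farnesyl diphosphate synthase, fell by 0.58 ± 0.12 in 10 of 12 animals (adjusted p = 0.00160). TM7SF2, a sterol reductase, fell by 0.38 ± 0.07 in 12 of 12 (adjusted p = 8.63e-04). From baseline the changes to week 12 were -1.09 for HMGCS1, -0.67 for SQLE, -0.71 for FDPS and -0.26 for TM7SF2.

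INSIG1, the protein that retains the SREBPs in the endoplasmic reticulum, moved against the enzymes. Its lowest, median and highest values were 9.15, 10.67 and 11.51 at week 4 and 10.89, 11.41 and 12.44 at week 12. It rose by 0.90 ± 0.18 in 11 of 12 animals (adjusted p = 0.00143), and 2 further probe sets rose by 0.35 and 0.49. The exception was control animal 1, the animal with the differing label, whose INSIG1 changed by -0.41. Against baseline INSIG1 was 0.66 higher. SREBF2, the gene of SREBP-2, changed by -0.03 ± 0.06 (adjusted p = 0.748). With GAPDH's 3' minus 5' value as a covariate, INSIG1 and HMGCS1 were not called, SQLE, FDPS and TM7SF2 were, and the list had 4 genes called lower and 0 higher.

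Among sterol export and oxysterol response genes, 2 of 13 (15.4%) were called higher and 1 (7.69%) lower, near the 14.3% and 12.5% of all tested genes, with a median of 0.08. From baseline 4 were called each way, with a median of -0.02. ABCA1, which loads cholesterol onto apolipoprotein A-I to form HDL, had a lowest, median and highest value of 7.41, 7.92 and 8.68 at week 4 and of 7.94, 8.37 and 9.00 at week 12. It rose by 0.44 ± 0.10 in 10 of 12 animals (adjusted p = 0.00275). ABCG5, part of the transporter that secretes sterol into bile, rose by 0.33 ± 0.07 in 11 of 12 (adjusted p = 0.00177). SOAT2, which esterifies cholesterol, fell by 0.33 ± 0.06 in 12 of 12 (adjusted p = 6.99e-04). From baseline the changes were 0.56 for ABCA1, 0.22 for ABCG5 and -0.39 for SOAT2. ABCG1 gave 0.17 ± 0.07 and missed the threshold (adjusted p = 0.0534), which it passed when arrays were centred on their medians. CETP, the plasma lipid transfer protein, gave 0.02 ± 0.14 (adjusted p = 0.927). Its level had been 9.63 at baseline and 8.06 at week 4, and was 8.08 at week 12, so it lay 1.55 below baseline at the end of the diet interval without a call for the interval itself. ABCA1 and ABCG5 were not called with GAPDH's 3' minus 5' value as a covariate.

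NR0B2, which encodes the FXR target SHP, had a lowest, median and highest value of 7.34, 8.23 and 8.72 at week 4 and of 8.15, 8.96 and 9.60 at week 12. It rose by 0.83 ± 0.15 in 11 of 12 animals (adjusted p = 6.45e-04) and was 1.04 above baseline. In the list of bile acid synthesis, transport and FXR, 3 of 18 genes were called higher (NR0B2, SLC10A1 and ABCB11), 5 lower (CYP27A1, ACOX2, SLC27A5, FGFR4 and ABCC3), and the median was -0.04. These are 16.7% and 27.8%, beside 14.3% and 12.5% of all tested genes. From baseline 5 were called each way, with a median of -0.03. ABCB11, the bile salt export pump, gave 0.30 ± 0.11 in 10 of 12 animals (adjusted p = 0.0404). That call was lost when any 1 of 8 animals was left out, and the value was -0.08 (adjusted p = 0.722) with GAPDH's 3' minus 5' value as a covariate. FGFR4, the hepatic receptor for the intestinal hormone FGF19, fell by 0.50 ± 0.08 in 11 of 12 animals (adjusted p = 2.94e-04). Its change from baseline was -0.09, without a call. SLC27A5, which activates bile acids for conjugation, fell by 0.46 ± 0.08 in 12 of 12 (adjusted p = 3.13e-04), with a second probe set at -0.13. CYP27A1, the sterol 27-hydroxylase that starts the acidic route of bile acid synthesis, fell by 0.30 ± 0.05 in 12 of 12 (adjusted p = 7.28e-04). From baseline, SLC27A5 and CYP27A1 fell by 0.57 and fell by 0.23, and ABCB11 was 1.10 higher.

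Of 24 fatty acid oxidation genes, 3 were called higher (ETFDH, PPARGC1A and DECR1) and 3 lower (ACADS, ACAA1 and CRAT), with a median of 0.07. Each share, 12.5%, was near those of all tested genes (14.3% and 12.5%). From baseline 4 were called higher and 9 lower, with a median of -0.21. ETFDH, which passes electrons from fatty acid oxidation to the respiratory chain, rose by 0.60 ± 0.09 in 11 of 12 animals (adjusted p = 1.52e-04) but remained 0.30 below baseline. ACADS, the short-chain acyl-CoA dehydrogenase, fell by 0.39 ± 0.06 in 11 of 12 (adjusted p = 3.01e-04). ACAA1, the peroxisomal thiolase, fell by 0.45 ± 0.09 in 10 of 12, with 2 animals at no change (adjusted p = 0.00145). CRAT, the carnitine acetyltransferase, fell by 0.34 ± 0.06 in 12 of 12 (adjusted p = 4.77e-04). CROT, a carnitine transferase and reported miR-33 target, gave 0.14 ± 0.06 and was not called (adjusted p = 0.108). The fasting hormone FGF21 gave -0.10 ± 0.09 (adjusted p = 0.434). From baseline, ACADS changed by -0.36, ACAA1 by -0.81, CROT by 0.22 and FGF21 by -0.43, while CRAT gave -0.13 without a call.

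In the list of glycolysis, fructose and glucose metabolism 6 of 26 (23.1%) were called higher and 2 (7.69%) lower, with a median of 0.18. From baseline 7 were called higher and 6 lower, with a median of 0.05. PFKFB1, which sets fructose 2,6-bisphosphate in liver, rose by 0.24 ± 0.06 (adjusted p = 0.00521), and TALDO1 of the pentose phosphate pathway by 0.21 ± 0.05 (adjusted p = 0.00709), each in 11 of 12 animals. Neither was called with GAPDH's 3' minus 5' value as a covariate. PC, the pyruvate carboxylase that opens gluconeogenesis, fell by 0.44 ± 0.06 in 12 of 12 (adjusted p = 5.36e-05), and the insulin receptor substrate IRS1 by 0.34 ± 0.07 in 11 of 12 (adjusted p = 0.00221). The ChREBP targets PKLR, which encodes pyruvate kinase, and TXNIP gave 0.20 ± 0.09 (adjusted p = 0.114) and 0.03 ± 0.14 (adjusted p = 0.908). Weaker PKLR probe sets rose by more, by 0.45 in 12 of 12 animals and by 0.32 in 8 of 12, and further TXNIP probe sets gave 0.01 and 0.11. From baseline, PFKFB1 rose by 0.26, PC, IRS1 and TXNIP changed by -0.33, -0.43 and -0.68, and TALDO1 and PKLR gave -0.10 and 0.24 without calls.

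Among apolipoproteins and lipoprotein remodelling genes, 1 of 15 (6.67%) was called higher and 2 (13.3%) lower, with a median of -0.01. From baseline the counts were 1 and 3. APOE fell by 0.47 ± 0.08 in 10 of 12 animals (adjusted p = 6.52e-04), with further probe sets at -0.31 and -0.39. LCAT, which esterifies cholesterol in HDL, fell by 0.46 ± 0.07 in 12 of 12 (adjusted p = 2.64e-04), with a weaker probe set at -0.17. From baseline APOE fell by 0.18 and LCAT fell by 0.37. APOC2, the cofactor of lipoprotein lipase, gave a rise of 0.18 ± 0.05 in 11 of 12 (adjusted p = 0.0163), whereas its other probe set gave -0.05, and its value from baseline was also -0.05. APOA4 gave -0.02 ± 0.09 (adjusted p = 0.923). Of 25 lipid droplet and triglyceride genes, 4 (16%) were called higher (CD36, GPAM, LPIN2 and FABP1) and 1 (4%) lower, with a median of 0.00. From baseline 3 were called higher and 4 lower. CD36, a fatty acid uptake receptor, rose by 0.61 ± 0.08 in 12 of 12 animals (adjusted p = 3.74e-05), although it ranged from 5.09 to 7.86 at week 4 and from 5.91 to 8.53 at week 12. It was 0.95 above baseline. GPAM, which starts glycerolipid synthesis, rose by 0.41 ± 0.07 in 11 of 12 (adjusted p = 4.15e-04), and LPIN2, a phosphatidate phosphatase, by 0.45 ± 0.11 in 10 of 12 (adjusted p = 0.00445). From baseline GPAM and LPIN2 gave -0.01 and 0.01. FITM1, a lipid droplet protein, fell by 0.35 ± 0.06 in 12 of 12 (adjusted p = 6.33e-04) and by less from baseline, where it fell by 0.25. The droplet coat protein PLIN2 gave 0.23 ± 0.16 with 6 of 12 animals up (adjusted p = 0.278).

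**Figure D3:**
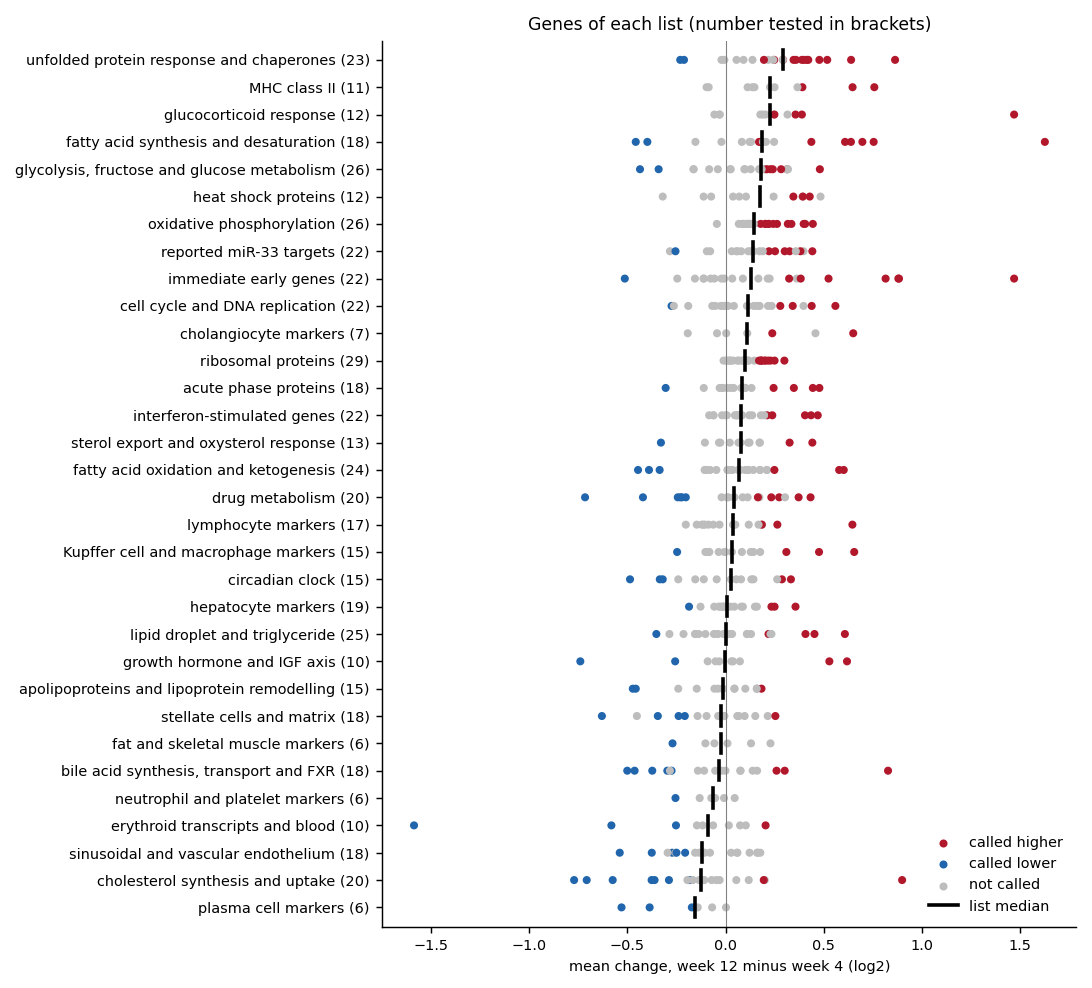
Mean change from week 4 to week 12 of every tested gene in 32 lists, on a log2 axis, with the number of tested genes in brackets. Red points were called higher, blue called lower and grey not called, and black bars mark list medians, from 0.29 for the unfolded protein response to -0.16 for plasma cell markers.

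The unfolded protein response list had the highest median of the 32 lists, 0.29, with 13 of 23 genes called higher and 2 lower (CALR and ATF4). These are 56.5% and 8.7%, beside 14.3% and 12.5% of all tested genes. HSPA5 (BiP), the main chaperone of the endoplasmic reticulum, had a lowest, median and highest value of 8.78, 9.39 and 10.93 at week 4 and of 9.45, 10.38 and 11.53 at week 12. It rose by 0.86 ± 0.12 in 11 of 12 animals (adjusted p = 1.09e-04). DNAJC3, a co-chaperone of BiP, rose by 0.48 ± 0.07 in 11 of 12 (adjusted p = 1.91e-04). PDIA6, which forms disulfide bonds, rose by 0.40 ± 0.06 in 12 of 12 (adjusted p = 1.81e-04), and its 3 further probe sets by 0.44, 0.33 and 0.51. The transcription factor XBP1 rose by 0.42 ± 0.06 in 12 of 12 (adjusted p = 2.00e-04). Against baseline HSPA5 was 0.37 higher, a value without a call (adjusted p = 0.110), and DNAJC3 gave 0.17 without a call, while PDIA6 rose by 0.49 and XBP1 by 0.39. The list's median from baseline was 0.19 with 7 called higher and 1 lower, or 30.4% and 4.35%, beside 11.7% and 17.5% of all tested genes. Among cytosolic and mitochondrial heat shock genes, 3 of 12 (25%) were called higher (with DNAJB4) and 0 lower, including the mitochondrial chaperonin HSPD1 (0.39 ± 0.08, adjusted p = 0.00108) and the HSP70 partner DNAJA1 (0.43 ± 0.11, adjusted p = 0.00672), each up in 11 of 12 animals. Neither of these was called with GAPDH's 3' minus 5' value as a covariate, and from baseline they gave 0.03 and 0.11 without calls. The heat shock list had 2 called higher and 3 lower from baseline, with a median of -0.05.

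Subunits of the respiratory chain and ATP synthase shifted by little, and nearly all upward. Of 26 tested genes, 12 (46.2%) were called higher and 0 lower, beside 14.3% and 12.5% of all tested genes. A change above 0 was seen in 25, beside 51.7% of all tested genes, and the median was 0.14. The list's mean was higher in 12 of 12 animals. From baseline 7 were called higher and 3 lower, with a median of 0.05. ATP5F1A, the alpha subunit of ATP synthase, ran from 11.53 to 12.09 at week 4 (median 11.82) and from 11.94 to 12.39 at week 12 (median 12.29). It rose by 0.45 ± 0.06 in 12 of 12 animals (adjusted p = 7.55e-05), to 0.01 above its baseline level. The complex I subunits NDUFB5 and NDUFA9 rose by 0.40 ± 0.06 (adjusted p = 1.81e-04) and 0.34 ± 0.06 (adjusted p = 0.00113), and ATP5PB, of the ATP synthase stalk, by 0.41 ± 0.07 (adjusted p = 3.05e-04). From baseline ATP5PB rose by 0.26, and NDUFB5 and NDUFA9 gave 0.13 and 0.05 without calls. With GAPDH's 3' minus 5' value as a covariate, 4 genes of the list were called higher, and after a second quantile normalization 8. Ribosomal protein genes gave 10 of 29 (34.5%) called higher, 0 lower and a median of 0.10 from week 4. From baseline the balance was reversed, with 2 (6.9%) called higher, 8 (27.6%) lower and a median of -0.07, beside 11.7% and 17.5% of all tested genes. RPS12 and RPL3 rose by 0.30 ± 0.06 (adjusted p = 0.00156) and 0.25 ± 0.05 (adjusted p = 0.00255) in 12 of 12 animals, and neither was called with GAPDH's 3' minus 5' value as a covariate. They were 0.21 and 0.13 above baseline, and a weaker RPS12 probe set gave -0.10. Many ribosomal protein genes have processed copies that cross-hybridise, so single values are uncertain. In the cell cycle list 4 of 22 (18.2%) were called higher (TYMS, PCNA, RRM2 and UBE2C) and 1 (4.55%) lower, and from baseline 7 and 2. TYMS and PCNA, of DNA synthesis, rose by 0.44 ± 0.08 (adjusted p = 4.45e-04) and 0.34 ± 0.07 (adjusted p = 0.00181), while the mitotic cyclin CCNB2 fell by 0.28 ± 0.07 (adjusted p = 0.00767) on a probe set whose partner gave 0.27. From baseline TYMS rose by 0.63 and PCNA by 0.42, and CCNB2 gave -0.06 without a call.

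DUSP1, a phosphatase that switches off stress kinases and responds to glucocorticoids, had the second largest rise. Its lowest, median and highest values were 6.44, 7.51 and 8.06 at week 4 and 7.21, 8.96 and 9.91 at week 12. It rose by 1.47 ± 0.16 in 11 of 12 animals, with 1 at no change (adjusted p = 1.47e-05), while 2 weaker probe sets of the gene gave -0.09 and -0.14. It was 1.34 above baseline. Among immediate early genes, 7 of 22 (31.8%) were called higher and 1 (4.55%), JUND, lower, with a median of 0.13. Of all tested genes, 14.3% and 12.5% were. From baseline the list was nearly balanced, with 6 called higher, 5 lower and a median of -0.03. GADD45B, a stress sensor, rose by 0.88 ± 0.15 in 10 of 12 animals (adjusted p = 4.02e-04), IER3 by 0.82 ± 0.13 in 11 of 12 (adjusted p = 3.02e-04) and NR4A3, an orphan nuclear receptor, by 0.38 ± 0.08 in 9 of 12 (adjusted p = 0.00267). From baseline GADD45B rose by 0.85 and IER3 by 0.57, and NR4A3 gave -0.09 without a call. In the glucocorticoid response list 4 of 12 (33.3%) were called higher and 0 lower, DUSP1 and KLF9 among them, with a median of 0.23. From baseline 2 were called higher and 0 lower, and the median was -0.09. The others were TAT, a tyrosine-degrading enzyme (0.36 ± 0.08, adjusted p = 0.00282), and TSC22D3, or GILZ (0.39 ± 0.10, adjusted p = 0.00554), which gave 0.18 and -0.30 from baseline without calls.

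In the circadian list 2 of 15 (13.3%) were called higher and 3 (20%) lower, NR1D2 among the latter, beside 14.3% and 12.5% of all tested genes. From baseline the counts were 2 and 1. CRY2 fell by 0.32 ± 0.05 in 10 of 12 animals (adjusted p = 4.02e-04) and TEF by 0.49 ± 0.13 in 9 of 12 (adjusted p = 0.0109), while CLOCK and CRY1 rose by 0.29 ± 0.07 (adjusted p = 0.00489) and 0.33 ± 0.10 (adjusted p = 0.0142). From baseline CRY2 fell by 0.31, and TEF, CLOCK and CRY1 gave -0.39, 0.10 and -0.09 without calls. The labels used here give no time of day for the biopsies. In the growth hormone and IGF axis 2 of 10 (20%) were called each way, and from baseline 2 higher and 3 lower. IGFALS, which holds IGF-1 in a stable serum complex, ran from 7.79 to 8.68 at week 4 (median 8.33) and from 7.17 to 8.09 at week 12 (median 7.52). It fell by 0.74 ± 0.06 in 12 of 12 animals (adjusted p = 6.49e-07). The change from baseline was smaller, -0.25. The binding protein IGFBP3 fell by 0.26 ± 0.08 (adjusted p = 0.0182). SOCS2, the feedback inhibitor of growth hormone signalling, rose by 0.62 ± 0.12 in 10 of 12 (adjusted p = 0.00109), and IGFBP2 by 0.53 ± 0.15 in 10 of 12 (adjusted p = 0.0117). From baseline IGFBP3 fell by 0.71, IGFBP2 rose by 1.26, and SOCS2 gave 0.21 without a call.

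Acute phase proteins gave 4 of 18 called higher (22.2%; CRP, CP, LBP and HP) and 1 lower (5.56%), with a median of 0.08. From baseline 8 were called higher and 1 lower, with a median of 0.14. CRP rose by 0.45 ± 0.07 in 12 of 12 animals (adjusted p = 1.98e-04), CP (ceruloplasmin) by 0.35 ± 0.07 (adjusted p = 0.00110) and LBP, which binds bacterial lipopolysaccharide, by 0.48 ± 0.13 (adjusted p = 0.00934), the latter pair in 11 of 12. ITIH4 fell by 0.31 ± 0.07 in 12 of 12 (adjusted p = 0.00248). From baseline CRP rose by 0.68, CP by 0.42 and LBP by 0.77, and ITIH4 fell by 0.23. IL6ST, the gp130 receptor subunit for IL-6, had a lowest, median and highest value of 6.17, 6.96 and 7.58 at week 4 and of 7.25, 7.89 and 8.53 at week 12. It rose by 0.99 ± 0.12 in 12 of 12 animals (adjusted p = 2.44e-05), with further probe sets at 0.86 and 0.32. Its baseline level was 8.50, so week 4 was the low point and week 12 still lay 0.64 under baseline. Of 22 interferon-stimulated genes, 5 (22.7%) were called higher (IFIT1 and HERC5 among them) and 0 lower, with a median of 0.08. From baseline far more were called, 17 (77.3%) higher and 0 lower, with a median of 0.40, beside 11.7% and 17.5% of all tested genes. The antiviral genes OAS2, RSAD2 and IFIH1 rose by 0.47 ± 0.12 (adjusted p = 0.00582), 0.44 ± 0.09 (adjusted p = 0.00170) and 0.41 ± 0.10 (adjusted p = 0.00534), and none of the 3 was called with GAPDH's 3' minus 5' value as a covariate. From baseline they rose by 0.41, 0.70 and 0.91. MHC class II genes, which present antigen, gave 3 of 11 (27.3%) called higher and 0 lower, with a median of 0.23. Against baseline 8 (72.7%) were called higher and 0 lower, with a median of 0.35. HLA-DMA rose by 0.76 ± 0.16 in 10 of 12 animals (adjusted p = 0.00255), HLA-DRA by 0.65 ± 0.15 in 11 of 12 (adjusted p = 0.00491) and the invariant chain CD74 by 0.39 ± 0.12 in 11 of 12 (adjusted p = 0.0204), with a second CD74 probe set at -0.10. Control animals 1 and 3 had the largest changes in each of these genes. They were 2.27 and 2.18 for HLA-DMA (others -0.32 to 1.16) and 1.90 and 1.91 for HLA-DRA (others -0.32 to 1.06). For CD74 they were 1.53 and 1.29 (others -0.11 to 0.71). The list's median change was 0.455 in the control arm and 0.147 in the anti-miR-33 arm. HLA-DRA ranged from 6.66 to 7.66 at week 4 and from 7.03 to 9.31 at week 12, and neither it nor CD74 was called without the 4 animals in doubt. HLA-DMA, HLA-DRA and CD74 were 1.03, 1.42 and 0.38 above baseline. Human probe sets for HLA genes may read related genes of the monkey.

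HBB, which encodes beta-globin of red cells, had the largest fall. Its lowest, median and highest values were 11.22, 12.24 and 12.93 at week 4 and 9.55, 10.38 and 12.33 at week 12. It fell by 1.59 ± 0.18 in 11 of 12 animals (3.01-fold, adjusted p = 2.17e-05), while 1 animal changed by 0.01. Its level at baseline was 11.92, and from there it fell by 1.37. Probe sets that share sequence fell by 1.37 and 1.52 and can also read other globins, and a weak one changed by -0.07. Of 10 tested erythroid genes, 3 (30%) were called lower and 1 (10%) higher, and from baseline 2 each way. ALAS2, the erythroid aminolevulinate synthase, fell by 0.58 ± 0.13 (adjusted p = 0.00366) and AHSP, the alpha-globin chaperone, by 0.25 ± 0.06 (adjusted p = 0.00445), each in 11 of 12 animals. FECH, the ferrochelatase also used by hepatocytes, rose by 0.20 ± 0.06 (adjusted p = 0.0102), while 2 other FECH probe sets gave 0.10 and 0.00. From baseline ALAS2 fell by 0.62, FECH rose by 0.21 and AHSP gave -0.02 without a call. Over the list, the mean log2 signal per array ran from 6.71 to 7.17 at week 4 and from 6.58 to 7.02 at week 12. In pieces of liver, fewer cells of a type and less RNA per cell cannot be told apart, here and in the marker lists that follow. The hepatocyte list moved little: 3 of 19 (15.8%) were called higher (TAT, CPS1 and TDO2) and 1 (5.26%) lower (ASGR1), beside 14.3% and 12.5% of all tested genes. It had 1 called each way from baseline, a median of 0.01, and array means of 11.75 to 12.04 at week 4 and 11.49 to 12.11 at week 12.

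Marker lists of other liver cells were mixed. Of 18 endothelial genes, 0 were called higher and 5 (27.8%) lower (CLEC4M beside those below), with a median of -0.12. From baseline 16 (88.9%) were called lower and 0 higher, with a median of -0.67, beside 17.5% and 11.7% of all tested genes. ENG (endoglin) ran from 6.41 to 7.03 at week 4 (median 6.68) and from 5.80 to 6.39 at week 12 (median 6.13), without overlap. It fell by 0.54 ± 0.06 in 12 of 12 animals (adjusted p = 2.28e-05), while a weaker probe set, at a mean of 5.14, gave -0.16 with 9 of 12 animals down. The sinusoidal receptors CLEC4G and STAB1 and the junction gene CLDN5 fell by 0.38 ± 0.10 (adjusted p = 0.0113), 0.27 ± 0.07 (adjusted p = 0.00689) and 0.25 ± 0.07 (adjusted p = 0.00810), each in 11 of 12, and were not called with GAPDH's 3' minus 5' value as a covariate. From baseline ENG fell by 1.19, CLEC4G fell by 1.35, STAB1 fell by 0.94 and CLDN5 fell by 0.43. This list had already been lower at week 4 than at baseline: its mean log2 signal went from 6.94 to 6.36 and, at week 12, to 6.26. The stellate cell and matrix list went from 7.87 to 7.52 to 7.44, with 4 of 18 (22.2%) called lower (DCN, PDGFRB, TAGLN and BGN) and 1 (5.56%) higher over the interval, and 12 lower and 0 higher from baseline. TAGLN, a smooth muscle protein, fell by 0.63 ± 0.12 (adjusted p = 9.97e-04) and BGN, a matrix proteoglycan, by 0.35 ± 0.07 (adjusted p = 0.00117). Other TAGLN probe sets gave -0.46 and -0.09, and those of BGN -0.37 and, at a low signal, 0.08. From baseline TAGLN fell by 0.92 and BGN fell by 0.91. In contrast the basement membrane collagen COL4A1 rose by 0.25 ± 0.09 (adjusted p = 0.0348), a call lost when any 1 of 9 animals was left out, and gave -0.07 from baseline without a call.

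**Figure D4:**
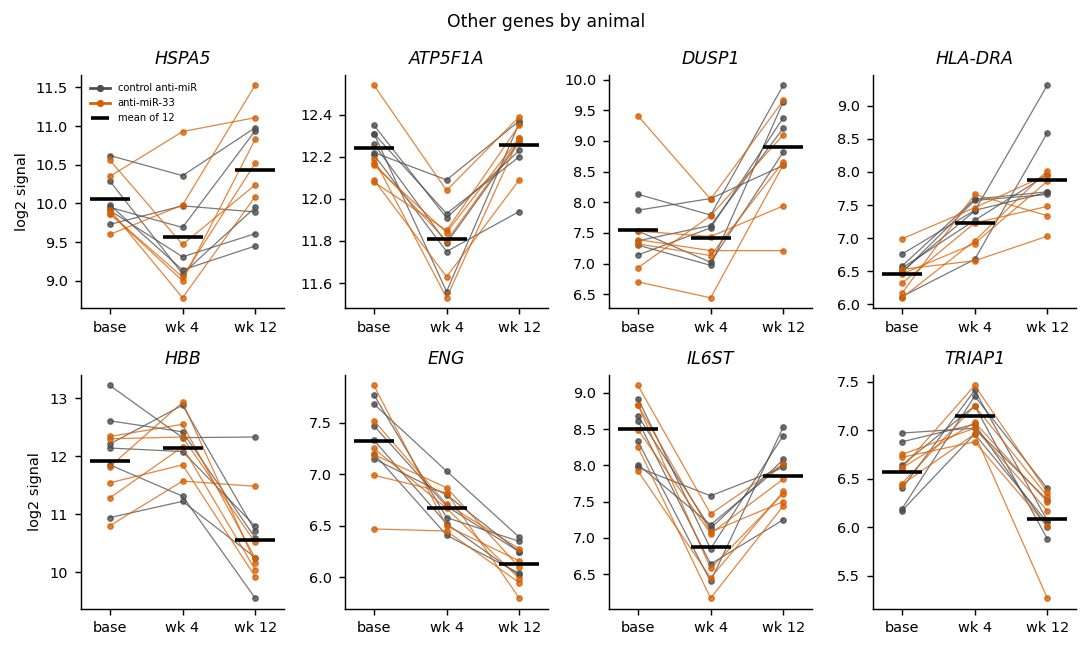
Log2 signal of 8 genes of other processes at baseline, week 4 and week 12, each line 1 animal, grey for control anti-miR and orange for anti-miR-33, with black bars at the means of 12. HBB drops at week 12, ENG steps down at both times, and IL6ST and HSPA5 are lowest at week 4.

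Leukocyte genes were called both ways. The pan-leukocyte phosphatase PTPRC (CD45) rose by 0.65 ± 0.15 in 10 of 12 animals (adjusted p = 0.00388), to 5.96, after 6.71 at baseline and 5.31 at week 4. It was thus still 0.75 below baseline. Of 17 lymphocyte markers, 3 were called higher and 0 lower, CD8A, PTPRC and KLRD1 of killer cells (0.26 ± 0.08, adjusted p = 0.0143; 0.21 from baseline). The 17.6% called higher was near the 14.3% of all tested genes, and the median was 0.04. From baseline 2 lymphocyte markers were called higher and 1 lower. Of 15 macrophage markers, LYZ (0.66 ± 0.13, adjusted p = 0.00132), MRC1 (0.48 ± 0.10, adjusted p = 0.00199) and CD14 (0.31 ± 0.06, adjusted p = 0.00154) were called higher and TYROBP (-0.25 ± 0.08, adjusted p = 0.0305) lower. These were 20% and 6.67% of the macrophage list, beside 14.3% and 12.5% of all tested genes. TYROBP lost its call when any 1 of 4 animals was left out. From baseline the macrophage list had 1 called higher and 3 lower, with a median of -0.12. LYZ was 0.55 above baseline, and MRC1, CD14 and TYROBP gave -0.12, 0.05 and -0.14 without calls. Plasma cell markers gave 3 of 6 (50%) called lower (DERL3 the third), beside 12.5% of all tested genes. MZB1 changed by -0.39 ± 0.06 in 12 of 12 animals (adjusted p = 2.20e-04) and the immunoglobulin gene IGHM by -0.53 ± 0.14 in 10 of 12 (adjusted p = 0.0107). Other IGHM probe sets gave -0.38, -0.19, -0.13 and 0.01. MZB1 had a mean of 5.82 at baseline, 6.21 at week 4 and 5.82 at week 12, so its value from baseline was 0.00. IGHM fell by 0.42 from baseline, where the list had 1 called lower and a median of 0.04. The neutrophil and platelet list had 1 of 6 (16.7%), ITGA2B, called lower, and from baseline 1 higher. The cholangiocyte list had 2 of 7 (28.6%) called higher: the adhesion protein EPCAM rose by 0.65 ± 0.09 in 12 of 12 (adjusted p = 1.09e-04), from a median of 4.44 to one of 4.94, and ANXA4 by 0.24 ± 0.07 in 10 of 12 (adjusted p = 0.0195). These were 0.30 and 0.60 above baseline, and the list again had 2 called higher. The fat and muscle list had 1 of 6 (16.7%), DES, called lower, and from baseline 0.

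Among the remaining genes of largest change that moved alike in 11 or more animals, the rises were of HPGD, HSPA13, DYNLL1, RGCC, NID2 and NUCB2. HPGD, which degrades prostaglandins, ran from 4.86 to 6.29 at week 4 (median 5.35) and from 5.47 to 8.96 at week 12 (median 6.25), a rise of 1.03 ± 0.19 (adjusted p = 7.55e-04), with a weaker probe set at 0.31. It was not called with GAPDH's 3' minus 5' value as a covariate. HSPA13, a microsomal HSP70 relative, rose by 1.01 ± 0.16 (adjusted p = 2.24e-04), and DYNLL1, a dynein light chain, by 0.96 ± 0.13 (adjusted p = 7.55e-05). RGCC, a regulator of the cell cycle, rose by 0.91 ± 0.15 (adjusted p = 2.80e-04), the basement membrane protein NID2 by 0.86 ± 0.12 (adjusted p = 6.80e-05), and NUCB2, a calcium-binding protein, by 0.82 ± 0.09 (adjusted p = 1.32e-05). From baseline HPGD rose by 0.77, DYNLL1 by 0.53, RGCC by 1.80 and NID2 by 0.73. HSPA13 and NUCB2 had been 0.69 and 0.78 lower at week 4 than at baseline, and week 12 lay 0.32 and 0.04 above baseline, without calls.

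The falls outside these lists had small errors. ANXA6, a membrane-binding annexin, ran from 7.81 to 8.86 at week 4 (median 8.18) and from 6.37 to 7.70 at week 12 (median 7.13), without overlap, and fell by 1.11 ± 0.09 (adjusted p = 4.21e-07). TRIAP1, a mitochondrial lipid transfer protein, ran from 6.88 to 7.46 and from 5.27 to 6.40, again without overlap, and fell by 1.05 ± 0.08 (adjusted p = 8.20e-08). DLST, a subunit of the 2-oxoglutarate dehydrogenase, fell from 8.01 to 8.54 (median 8.32) to 6.99 to 7.71 (median 7.39), by 0.90 ± 0.06 (adjusted p = 3.72e-08). FBXL17, RAB5C, FAAH and PBX2 also had no overlap between weeks, and fell by 0.98, 0.86, 0.83 and 0.81. FBXL17 is a ubiquitin ligase subunit, RAB5C an endosomal GTPase, FAAH the hydrolase of the endocannabinoid anandamide, and PBX2 a homeobox factor. APP, the amyloid precursor, and PPP1R1A, a phosphatase inhibitor, fell by 0.79 and 0.78 in 12 of 12 animals, and from baseline fell by 0.60 and fell by 0.51. Second probe sets of ANXA6, RAB5C, APP and PBX2 gave -0.09, 0.02, -0.01 and -0.06, and one of PPP1R1A -0.25, so these falls rest on 1 probe set each or, for PBX2 and APP, on part of them. Against baseline the 7 non-overlapping genes were lower by less: ANXA6 fell by 0.73, TRIAP1 fell by 0.48, FBXL17 fell by 0.29, DLST fell by 0.79, RAB5C fell by 0.45, FAAH fell by 0.52 and PBX2 fell by 0.32.

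Drug metabolism genes moved both ways, with 5 of 20 (25%) called higher (CYP3A5, CYP4F2, SULT2A1, FMO5 and ALAS1) and 6 (30%) lower, and from baseline 5 and 4. CYP1A1, the dioxin-inducible P450, ran from 5.69 to 7.33 at week 4 (median 6.46) and from 5.14 to 6.64 at week 12 (median 5.67), and fell by 0.72 ± 0.11 in 12 of 12 animals (adjusted p = 1.91e-04). The glutathione transferase GSTA1 fell by 0.42 ± 0.06 in 12 of 12 (adjusted p = 7.55e-05), without overlap between weeks, on the stronger of 2 probe sets, the other giving 0.12. Other glutathione transferases of its family share sequence. ALAS1, the rate-limiting enzyme of hepatic heme synthesis, rose by 0.43 ± 0.11 in 11 of 12 (adjusted p = 0.00568), and FMO5 by 0.23 ± 0.06 in 11 of 12 (adjusted p = 0.00541), with a second FMO5 probe set at -0.08. From baseline CYP1A1 fell by 0.37, GSTA1 fell by 0.23, ALAS1 rose by 0.61 and FMO5 by 0.41. Of 22 reported miR-33 targets, 6 (27.3%) were called higher and 1 (4.55%) lower, with a median of 0.14, and the list's mean was higher in 12 of 12 animals. From baseline the counts were the same, with a median of 0.08. The list median was 0.16 in the control arm and 0.15 in the anti-miR-33 arm. TWF1, an actin-binding protein, rose by 0.38 ± 0.06 in 12 of 12 (adjusted p = 1.98e-04), PRKAA1, a catalytic subunit of AMPK, by 0.33 ± 0.08 (adjusted p = 0.00749), and the deacetylase SIRT6 fell by 0.26 ± 0.05 in 12 of 12 (adjusted p = 0.00169). TWF1 has further probe sets at -0.17 and 0.20 and PRKAA1 one at 0.08. From baseline TWF1 rose by 0.37, and PRKAA1 and SIRT6 gave 0.13 and 0.08 without calls.

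The arms were also fitted singly, with 6 animals each. In the control arm 564 genes (4.14%) were called higher and 501 (3.67%) lower, and in the anti-miR-33 arm 778 (5.71%) and 820 (6.01%). The difference between the arms in the change gave 0 calls among 13634 genes (0% called, lowest adjusted p = 0.998 in limma), with 489 genes at an unadjusted p under 0.05. Pooling therefore averaged arms for which no gene's difference passed the test, which does not show that the arms acted alike. SCD rose by 1.47 ± 0.22 in the control arm and 1.79 ± 0.22 in the anti-miR-33 arm, a difference of 0.32 ± 0.32. Wider gaps were seen for SREBF1 (1.36 and 0.04, unadjusted p = 0.0133), RGCC (1.40 and 0.42, unadjusted p = 0.00326), THRSP (1.16 and 0.36, unadjusted p = 0.0224) and HSPA5 (0.54 and 1.19, unadjusted p = 0.0165) in limma's interaction term. FASN gave 0.64 and -0.14, CETP 0.37 and -0.32, and FGF21 0.20 and -0.39, so their pooled values average opposite signs. The fall of FGF21 was called in the anti-miR-33 arm alone, though not in the pooled fit. All of the genes with these gaps had an adjusted p of 0.998 for the difference.

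Of the 116 called genes given with values, 46 were not called with GAPDH's 3' minus 5' value as a covariate, and ABCB11 changed sign. Beside those already marked, they were CYP27A1, IRS1, APOC2, LPIN2, FITM1, FMO5, ITIH4, LBP, CRY2, CLOCK, TAT, TSC22D3, IGFBP2, IGFBP3, TYMS, PCNA, CCNB2, PRKAA1, FECH, TYROBP, PTPRC, KLRD1, CD74, BGN, COL4A1, ANXA4 and ATP5PB. Without the 4 animals in doubt, 23 were not called: SREBF1, ABCB11, ABCA1, PFKFB1, APOC2, FMO5, RSAD2, TEF, CRY1, IGFBP2, IGFBP3, CCNB2, AHSP, FECH, PTPRC, KLRD1, IGHM, HLA-DRA, CD74, STAB1, CLEC4G, COL4A1 and ANXA4. With all 36 arrays and the animal as a random block, 11 lost their calls: RGCC, SREBF1, ABCB11, THRSP, GPAM, CRP, LBP, IGFBP2, IGHM, COL4A1 and ANXA4. Without the animal as a block, 21 did: these 11 and ABCG5, SLC27A5, CD36, DNAJA1, CLOCK, TEF, CRY1, TSC22D3, FECH and TYROBP. A second quantile normalization lost ABCB11, PFKFB1, TALDO1, FMO5 and ANXA4, and limma's trend and robust settings lost SREBF1 and ABCB11. All of these settings kept the calls of SCD, ELOVL5, MLXIPL, SQLE, FDPS, NR0B2, HSPA5, IL6ST, HBB and ENG, and of ANXA6, TRIAP1, FBXL17, DLST, RAB5C, FAAH and PBX2.

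For several called genes the probe set used was not matched by the others of the gene. GPAM gave 0.10 on a second probe set, LPIN2 0.21, PFKFB1 -0.11 and IRS1 -0.12. The remaining probe sets of DNAJC3 gave 0.15, 0.63 and 0.30, that of XBP1 0.02, and those of GADD45B 0.91, 0.62 and 0.11. For TAT they gave 0.10 and 0.23, for TSC22D3 0.13 and -0.06, for CLOCK 0.04 and 0.17, for TEF -0.20 and for ITIH4 -0.15 and -0.15. KLF9, named above only as called higher in the glucocorticoid list, had further probe sets that went both ways, at -0.09, 0.55 and -0.155. Each was of lower mean signal than the probe set used, which by rule was the highest.

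**Figure D5:**
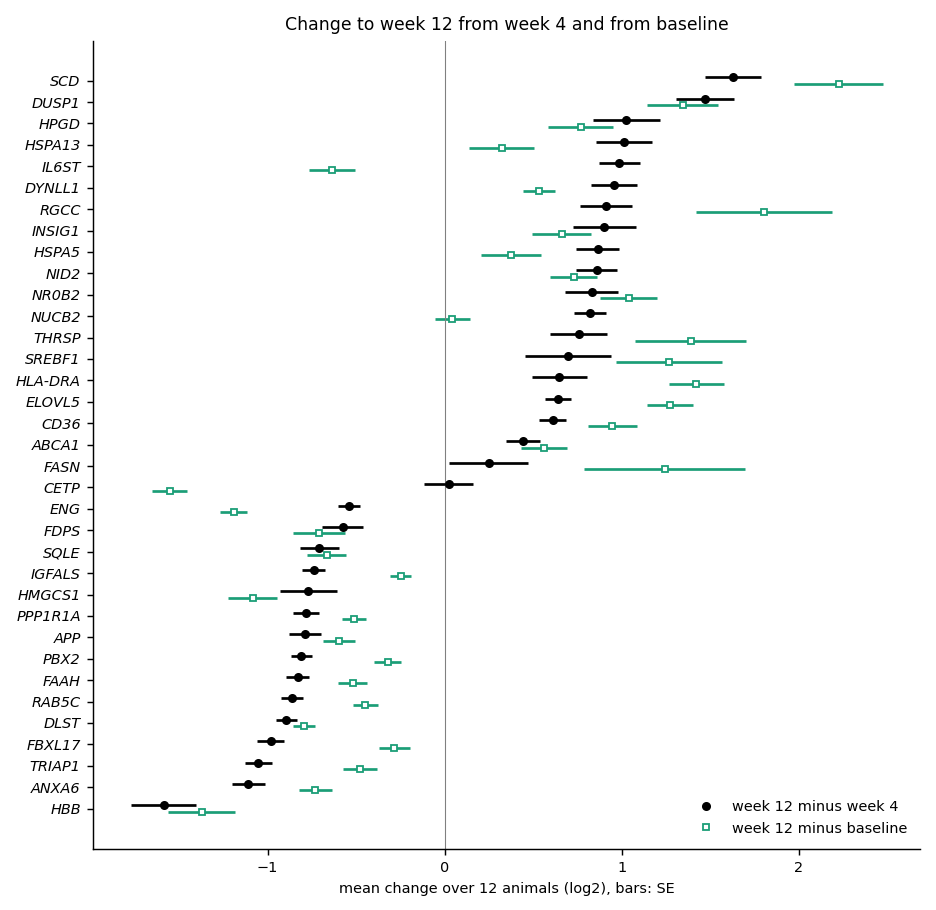
Mean change over 12 animals on a log2 axis, with bars for the SE, from week 4 (filled circles) and from baseline (open squares) to week 12, for 35 genes. Both share the week 12 arrays. SCD, THRSP, SREBF1, HLA-DRA, ELOVL5 and FASN are further from 0 against baseline, the tight falls from TRIAP1 to PBX2 are nearer 0, IL6ST has opposite signs, and CETP differs only from baseline.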

How the data were processed

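Total RNA of 36 liver biopsies from 12 animals was labelled with biotin and hybridised to human HG-U133 Plus 2.0 arrays. The deposited values are log2 signals of 54675 probe sets per array, normalised with RMA per the submitters' processing notes; the sources used here give neither its version nor whether all arrays were normalised together. Array medians of 4.42 to 4.51 were kept as deposited. Genes were named from GEO's annotation of the platform, which can be old: 41097 probe sets had 1 symbol, 1801 had several and 11777 had none, and the latter kinds were left out. For each gene the probe set of highest mean over the 36 arrays was kept if that mean reached the median of all probe sets (4.46), which left 13634 genes.

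Changes were fitted with limma 3.58.1 in R 4.3.3, with the animal as a fixed block and a change per arm, and the pooled change was the mean over arms. The animal numbers in the labels give the pairing: deviations from group means correlated at 0.163 to 0.496 within an animal, and 12 of 12 animals matched their own array best within the arm. SE are the fit's. The change from baseline to week 12 was fitted separately in limma, as the mean of the 12 animals' differences, without an arm term. Single array measures were tested by sign permutation over the 12 animals. Array number limits the precision.

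Genes named are the 12 of largest mean change each way that were called and moved alike in at least 11 animals. Also named are the marker genes SCD, NR0B2 and HBB with others of lipid metabolism, and up to 4 genes of smallest p in each of 32 lists. Names without values complete some counts of called genes and were added after their values were seen. The members and lists were chosen with earlier results of these data known, and lists are described by counts and medians. List genes without a tested probe set are not analysed here. The change from baseline, the fit without the 4 animals in doubt (control animals 1, 5 and 6, and anti-miR-33 animal 5), the GAPDH covariate and the test against 0.5 were chosen after seeing the data.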

Additional observations from a re-analysis of the deposited data

Results flagged for a closer look

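Changes were examined in groups of 6 animals for the named genes and 4 array measures, 260 groups in all, and 22 had 1 animal far from the other 5, where chance alone sets apart about 1 group in 20. The hybridisation control bioB, which no gene comparison uses, also stood at a mean log2 signal of 9.21 on the week 4 arrays, against 5.33 to 6.39 on the 24 baseline and week 12 arrays.

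In the control arm, animal 1 stood apart for MLXIPL (-0.04), IRS1 (0.26), LBP (-0.72) and AHSP (-0.49). Animal 5 stood apart for PC (-0.75), LCAT (-1.09), ITIH4 (-0.82) and IFIH1 (1.5), and its highest array signal changed by -1.20. Animal 2 stood apart for PLIN2 (2.00, others -0.40 to 0.32) and animal 4 for TAGLN (0.43, others -1.09 to -0.62).

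In the anti-miR-33 arm, animal 4 stood apart for HBB (-0.09, others -2.77 to -1.82), TRIAP1 (-1.69) and CETP (1.34, others -0.98 to -0.34). Animal 6 stood apart for TAGLN (-1.65), BGN (-0.82) and CRP (0.91), animal 2 for LCAT (-0.04) and ATP5F1A (0.76), animal 1 for CRAT (-0.64), and animal 5 for ALAS1 (1.74), with a change of 0.73 in its highest array signal.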

How the results depend on the processing

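Leaving out 1 animal at a time gave 3191 to 3606 calls, and 111 of the 116 named genes that were called kept their call in all 12 such fits, the exceptions being SREBF1, ABCB11, CD74, TYROBP and COL4A1. Counts ranged over these fits from 4 to 9 for fatty acid synthesis genes called higher, 1 to 2 for cholesterol genes called higher, 0 to 2 for unfolded protein response genes called lower and 0 to 1 for endothelial genes called higher. Small uncalled changes crossed 0: CETP ran from -0.098 to 0.11, TXNIP from -0.092 to 0.13 and APOA4 from -0.096 to 0.031. In the fit without the replicate block that pairs an animal's arrays, 2691 genes were called, with 2 fatty acid synthesis genes, 1 cholesterol gene and 8 unfolded protein response genes higher, 410 calls in the control arm and 730 in the anti-miR-33 arm. With all 36 arrays and a random animal block, 3759 genes were called, with 3 fatty acid synthesis genes and 1 endothelial gene higher; 11 named genes lost their calls there and 21 without the block. Counting every probe set gave 5700 calls by construction (3023 higher, 2677 lower), with 13 for fatty acid synthesis, 4 higher and 11 lower for cholesterol, 24 higher for the unfolded protein response, and 21 higher and 1 lower for oxidative phosphorylation. The control arm alone gave 1065 calls (564 higher, 501 lower) and the anti-miR-33 arm 1598 (778 higher, 820 lower), with fewer animals. There SREBF2 (0.053), APOA4 (0.24) and FGF21 (0.20) in the control arm and FASN (-0.14), CETP (-0.32) and TXNIP (-0.29) in the anti-miR-33 arm had the sign opposite to the pooled value. The GAPDH covariate gave 1114 calls (491 higher, 623 lower), with 3 higher and 1 lower for fatty acid synthesis, 0 and 4 for cholesterol, 0 lower for the unfolded protein response, 4 higher for oxidative phosphorylation and 1 lower for endothelium. FASN (-0.039), ABCB11 (-0.075), CETP (-0.0072), PKLR (-7e-04) and APOA4 (0.17) changed sign under it. Without the 4 animals in doubt there were 2219 calls (1127 higher, 1092 lower), with 4 fatty acid synthesis genes and 1 cholesterol gene higher and 0 unfolded protein response genes lower, and FASN (-0.069) and CETP (-0.026) changed sign. Centring arrays (1 unfolded protein response gene lower, APOA4 at 0.005), the mean 3' minus 5' covariate (3529 calls, 0 unfolded protein response genes lower, APOA4 at 0.025), trend and robust settings (5 fatty acid synthesis genes higher), no filter (1 endothelial gene higher), a filter at the 0.75 quantile of probe sets (1 cholesterol gene higher) and a second quantile normalization (3610 calls, 8 oxidative phosphorylation genes higher, CETP -0.015, TXNIP -0.017) kept the call and the sign of at least 118 of the 126 named genes (111 of 111 tested under the stricter filter). Testing against 0.5 left 10 calls. The 3' minus 5' change was -0.41 for GAPDH alone and 0.18 for ACTB alone. The causes were not tested.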

Other observations

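The 12 animals differed in how far they moved. The number of tested genes that changed by 2-fold or more within an animal was 112, 169, 57, 99, 165 and 28 in control animals 1 to 6 and 119, 149, 41, 74, 108 and 69 in anti-miR-33 animals 1 to 6. The median change over the genes called higher ran from 0.19 in control animal 6 to 0.42 in anti-miR-33 animal 2. The SCD rise did not follow this count in all animals. Control animal 6, with the fewest such genes, had the smallest SCD rise, 0.51, but anti-miR-33 animal 3, with the next fewest, rose by 2.19, and control animal 2, with the most, by 1.18. The greatest rise, 2.39, was in anti-miR-33 animal 2. SCD rises under 1 were seen in 3 animals: control animals 1 and 6 and anti-miR-33 animal 1, whose SCD had already been 10.63 at baseline.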
